A study of Mus musculus with 12 samples.

Results

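The nuclear-encoded subunits of oxidative phosphorylation were examined in RNA-seq libraries of 2 mouse testis cell lines, C18-4 and TM4, that carried shRNAs against the muscarinic receptor M5 (shM5) or a control shRNA (shNC). Members were taken by gene symbol, as the Ndufa, Ndufb, Ndufc, Ndufs and Ndufv genes of complex I, the Sdh genes of complex II, the Uqcr genes of complex III, the Cox4 to Cox8 genes of complex IV and the Atp5 genes of complex V. These were 84 of the 17995 genes in the table, with 39 in complex I, 4 in complex II, 8 in complex III, 16 in complex IV and 17 in complex V. C18-4 is an immortalized line of mouse spermatogonial stem cells and TM4 is a mouse Sertoli cell line. Each line had 3 shNC libraries and 3 shM5 libraries, 12 in all, and the labels give the strain of every sample as IRC. The shM5 cells carried a mixture of 3 shRNAs against M5 and were kept as stable cells, so hairpins cannot be compared singly. The C18-4 cells were grown in DMEM/F12 and the TM4 cells in DMEM, so line and medium cannot be told apart. The sources do not say whether the 3 libraries of a group came from separate cultures, and the p-values measure only the spread between these libraries.

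Oxidative phosphorylation couples the oxidation of NADH and succinate to the synthesis of ATP at the inner mitochondrial membrane. Complex I passes electrons from NADH and complex II from succinate to ubiquinone, complex III passes them on to cytochrome c, and complex IV reduces oxygen. The proton gradient built by complexes I, III and IV drives complex V, the ATP synthase. Most subunits are encoded in the nucleus and a smaller set, which includes catalytic subunits of complexes I, III, IV and V, in the mitochondrial genome. The latter were not analysed here. In the testis, Sertoli cells are known for glycolysis with export of lactate, whereas oxidative phosphorylation is prominent in later germ cells.

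Expression was measured as RPKM, read density scaled for transcript length and library size, which can be compared between genes as a level per length. The summed RPKM of a library lay between 506413 and 540231, and the members together made up 2.45% to 2.84% of it. The targeted gene could not be used to check the labels, because Chrm5, the gene of M5, was listed at 0 to 0.01 RPKM in all 12 libraries. The spermatogonial markers Gfra1 and Ret were at no more than 0.34 and 0.02 RPKM and Kit was listed at 0 in every library, while Uchl1 was at 76.8 to 140.02 RPKM in C18-4 and at 0 in TM4. The Sertoli marker Sox9 was at 1.11 to 1.74 RPKM in TM4, Amh at no more than 0.19 RPKM, and Wt1 was at 0.06 to 0.15 RPKM in TM4 against 53.9 to 72.3 RPKM in C18-4, and 3 of 14 listed germ cell markers in C18-4 and 8 of 15 listed Sertoli markers in TM4 had a mean of at least 0.5 RPKM. Gfra1, Ret and Kit in C18-4, and Amh and Wt1 in TM4, thus stayed under 0.5 RPKM. Single C18-4 libraries also had 7 or 8 Sertoli markers at 0.5 RPKM or more. The Sertoli markers summed to 78.96 to 79.99 RPKM in C18-4 shNC and 84.97 to 92.61 RPKM in C18-4 shM5. Their sum was 52.7 to 95.75 RPKM in TM4 shNC and 47.82 to 50.88 RPKM in TM4 shM5, so this list did not set TM4 above C18-4. Replicate 3 of TM4 shNC stood apart from its group. On log2(RPKM + 0.1), its root mean square distance over all genes was 0.630 and 0.631 to the other two TM4 shNC libraries, and 0.227 to 0.269 to the 3 TM4 shM5 libraries. Counts and tests that used this library are also given without it, apart from those with another scaling, which was run on all libraries alone. It was singled out after seeing the data, and leaving it out removes the TM4 shNC library nearest to TM4 shM5. Without it, the p-values of shM5 against shNC in TM4, and of this effect compared between the lines, are therefore descriptions and not independent tests.

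All 5 complexes were expressed in all 12 libraries, and their median levels ran in the order V, IV, III, I and II from high to low. The median over the tested members of their mean RPKM was 231 for complex V, 203 for complex IV, 109 for complex III, 84.8 for complex I and 81.1 for complex II. The ranges overlapped widely, so this is an order of medians and not of every subunit. Complex V was led by Atp5b, the catalytic beta subunit of the F1 head, at 935 RPKM, followed by Atp5j2, subunit f of the membrane part, at 537 RPKM. Complex IV was led by the small subunits Cox8a at 718 RPKM and Cox6a1 at 587 RPKM. In complex III the highest levels were those of Uqcrb, 343 RPKM, and Uqcr10, 237 RPKM, both small accessory subunits, and the lowest was that of Uqcrfs1, the Rieske iron-sulfur protein, at 53.1 RPKM.

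Within complex I, Ndufa4 was at 646 RPKM and Ndufa12 at 244 RPKM, against 13.6 RPKM for Ndufa11, a membrane subunit. Ndufa4 carries a complex I name but is known as a subunit of complex IV, and it was the only gene counted in complex I with a mean above 244 RPKM. The 4 genes of complex II lay closest together, with Sdhc at 93.2 RPKM, Sdhb at 87.7 RPKM, Sdhd at 74.5 RPKM and Sdha at 59.2 RPKM. Sdha and Sdhb form the catalytic head that oxidizes succinate, and Sdhc and Sdhd anchor it in the membrane. The lowest tested members were Cox6a2, a muscle isoform, at 1.46 RPKM and Atp5s, a coupling factor that is not a structural subunit, at 3.83 RPKM.

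**Figure D1:**
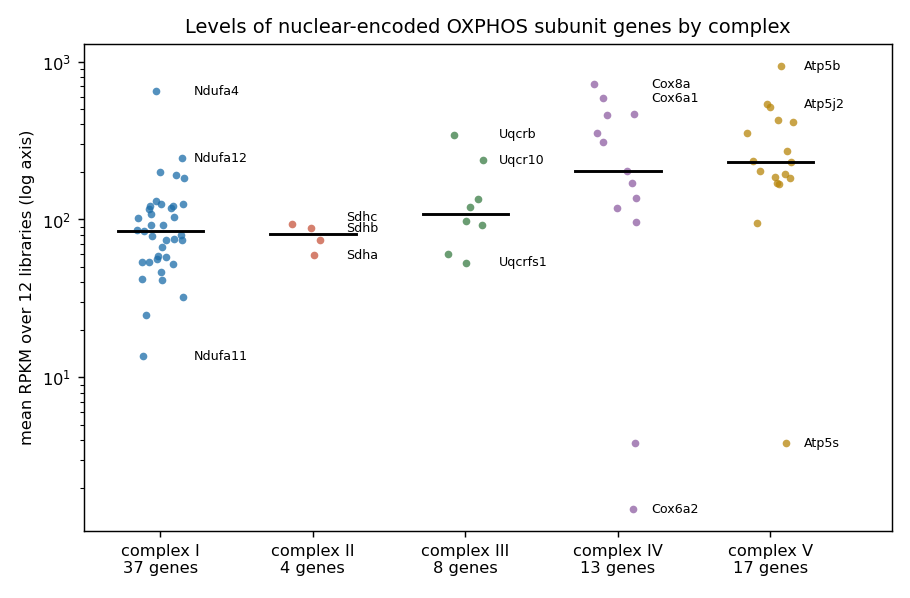
Mean RPKM over the 12 libraries of each member, by complex, on a log axis, with 1 point per gene and a black bar at the median of the tested members. The medians were highest in complexes V and IV, at 231 and 203 RPKM, and Cox6a2 and Atp5s lay far below the other tested members of their complexes.

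Of the 84 members, 5 had a mean under 0.5 RPKM and were not tested, which left 79 members (37, 4, 8, 13 and 17 in complexes I to V). They were the complex IV genes Cox4i2, Cox6b2 and Cox7b2, which are lung or testis isoforms, and Ndufa11b and Ndufb4b, copies of complex I genes. Cox6b2, whose product is known from sperm, was at 0 to 0.19 RPKM in C18-4 and listed at 0 in all 6 TM4 libraries. Cox7b2 was at 0 to 0.45 RPKM, Cox4i2 at 0 to 0.2 RPKM, Ndufa11b at 0 to 0.16 RPKM and Ndufb4b at 0 to 0.54 RPKM over the 12 libraries. Ndufb4b and the tested Ndufb4c (14.5 to 34.7 RPKM) are near copies of Ndufb4 (115 to 148 RPKM), and how reads were divided among the 3 is uncertain.

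In the Cox4i, Cox6a, Cox6b and Cox7b families the ubiquitous isoform made up over 98.7% of the family's RPKM in every library. The share of Cox7a2 in its family was lower in C18-4, at 87.6% to 95.1%. Cox4i1 was at 421 to 526 RPKM and made up over 99.9% of the Cox4i RPKM in every library. Cox7a1, the isoform of heart and skeletal muscle, made up 7.65% ± 4.12 (SD, n = 3) of the Cox7a RPKM in C18-4 shNC and 6.51% ± 1.64 in C18-4 shM5. In TM4 its share was 0.893% ± 0.218 with shNC and 0.412% ± 0.369 with shM5, below every C18-4 library. The c ring of the ATP synthase, whose protein has the same mature sequence from 3 genes, drew 48.8% ± 6.16 of its RPKM from Atp5g2 in C18-4 shNC and 49.5% ± 1.48 in TM4 shM5. The share of Atp5g1 lay between 20.02% and 24.4% and that of Atp5g3 between 26.7% and 30.4% as means of the 4 groups.

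Genes of oxidative phosphorylation are known for promoters with sites for NRF1, for the ETS factor GABP and for YY1. RefSeq promoters on the GRCm38.p6 build, from 250 bases before to 50 bases after each start, were matched to 68 of the 84 members, which have 73 of the 32851 promoters in the table. Motifs were searched as exact letters on both strands, with GCGC and TGCGC parted by 1 base of any kind for NRF1, CCGGAAG for ETS and AAGATGGC for YY1, and none of these contains another. The NRF1 letters were in 24.7% of the members' promoters and in 4.603% of all promoters, the ETS letters in 21.9% and 8.86%, and the YY1 letters in 13.7% and 2.75%. At least 1 of the 3 was in 52.1% of the members' promoters, against 14.7% of all. A match to letters is a description and was not shown to be bound.

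The promoters of 4 members named in the comparisons are shown, each 5′ to 3′ on the strand of its gene, with the matched letters in capitals. They were picked from the 37 of 68 genes with a match. Other members named in the comparisons, such as Ndufv1, Cox7b and Cox7a2l, had no match. Uqcrh, the hinge protein of complex III, has an ETS match on the opposite strand at chr4:116075021-116075320 (minus strand). Ndufa8, an accessory subunit of complex I, has an NRF1 match at chr2:36049289-36049588 (minus strand). Sdhd, a membrane anchor of complex II, has an NRF1 and an ETS match, both on the opposite strand, at chr9:50603800-50604099 (minus strand). Ndufs7, a core subunit of complex I, has a YY1 match at chr10:80249199-80249498 (plus strand).
Uqcrh: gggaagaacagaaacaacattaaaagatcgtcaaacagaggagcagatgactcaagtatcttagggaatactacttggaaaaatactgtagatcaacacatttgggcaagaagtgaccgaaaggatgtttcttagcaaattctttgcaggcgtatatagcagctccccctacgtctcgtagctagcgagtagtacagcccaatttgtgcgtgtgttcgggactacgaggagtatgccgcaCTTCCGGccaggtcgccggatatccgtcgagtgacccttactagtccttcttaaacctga
Ndufa8: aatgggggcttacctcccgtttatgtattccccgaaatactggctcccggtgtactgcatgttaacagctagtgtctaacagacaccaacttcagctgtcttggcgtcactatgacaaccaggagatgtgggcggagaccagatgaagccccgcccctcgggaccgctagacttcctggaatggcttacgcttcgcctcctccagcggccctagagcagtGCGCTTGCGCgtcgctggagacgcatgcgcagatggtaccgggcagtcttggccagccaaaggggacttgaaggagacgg
Sdhd: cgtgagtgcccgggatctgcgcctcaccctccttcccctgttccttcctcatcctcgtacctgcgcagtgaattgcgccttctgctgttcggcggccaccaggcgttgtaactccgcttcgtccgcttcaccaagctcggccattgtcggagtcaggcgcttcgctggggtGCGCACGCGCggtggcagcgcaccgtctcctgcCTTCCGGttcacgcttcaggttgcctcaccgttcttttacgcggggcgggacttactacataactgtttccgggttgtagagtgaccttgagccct
Ndufs7: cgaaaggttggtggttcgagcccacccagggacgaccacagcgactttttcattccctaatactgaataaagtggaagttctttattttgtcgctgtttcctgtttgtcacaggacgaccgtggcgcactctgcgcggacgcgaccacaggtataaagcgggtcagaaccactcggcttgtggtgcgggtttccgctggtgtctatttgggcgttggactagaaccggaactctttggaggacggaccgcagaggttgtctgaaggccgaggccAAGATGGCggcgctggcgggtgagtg

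The spread between replicates was not even over the libraries. The median over the members of the log2 difference from the mean of the other two replicates was -0.03, -0.12 and 0.15 for replicates 1, 2 and 3 of TM4 shNC, while over all genes it was 0.00, 0.00 and 0.01. It was 0.12, -0.03 and -0.10 in C18-4 shNC and 0.07, 0.00 and -0.06 in C18-4 shM5, where replicate 3 had the lowest members in both groups and a median over all genes of 0.10 and 0.08. In TM4 shM5 it lay between -0.03 and 0.03.

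**Figure D2:**
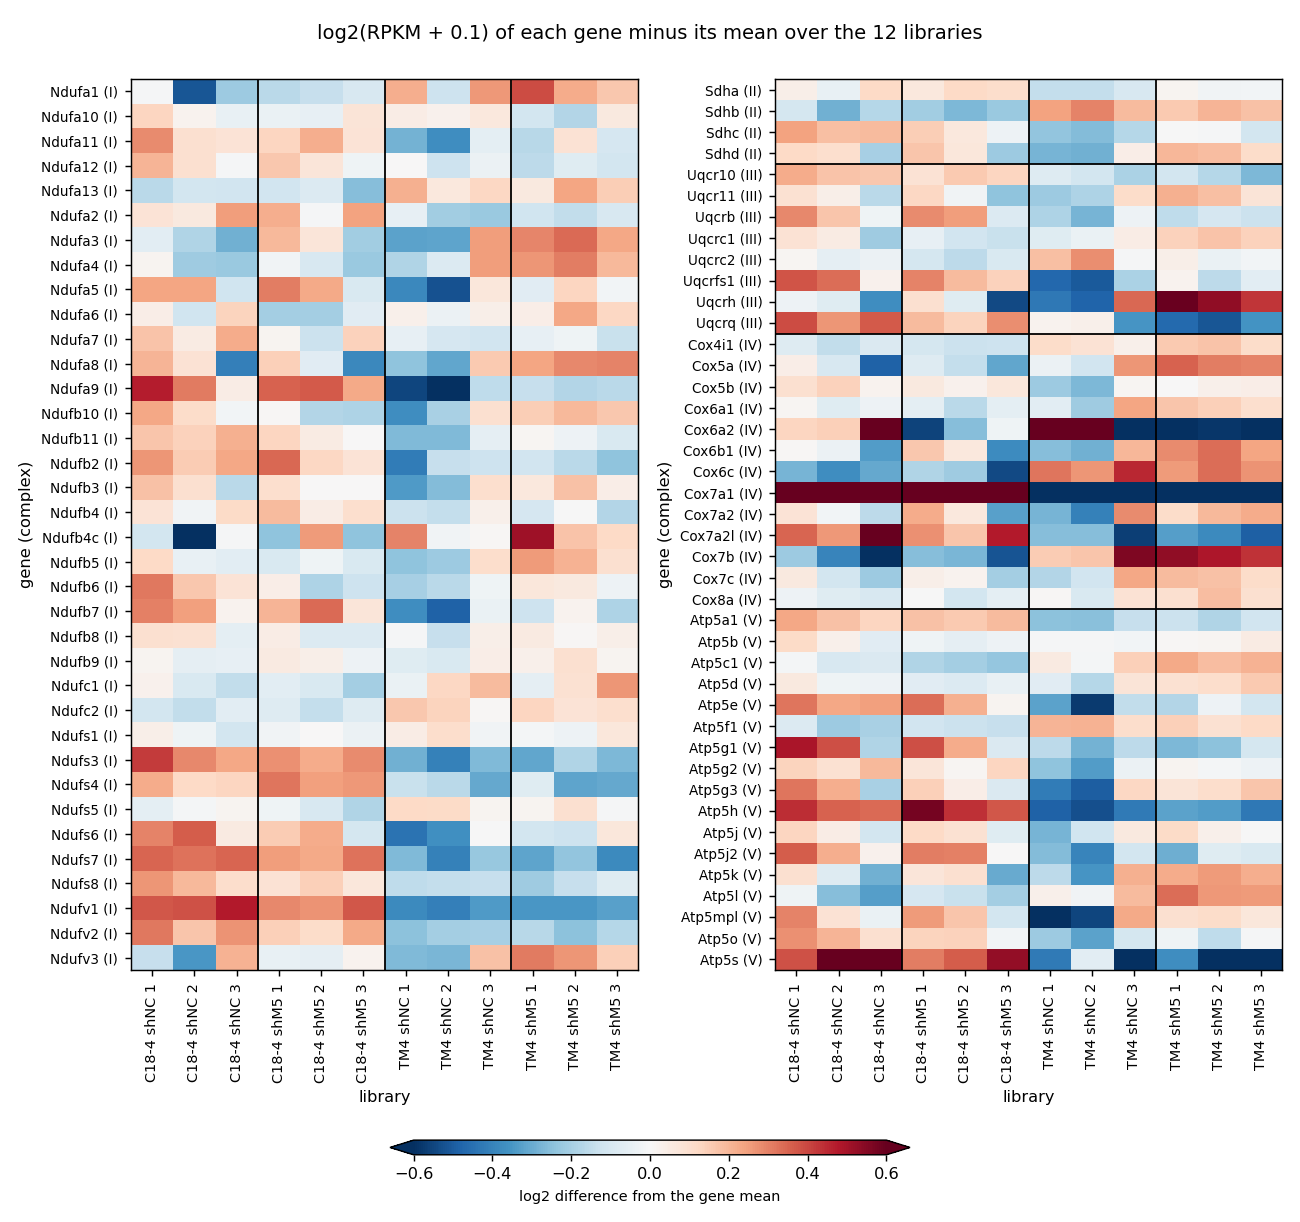
The tested members, 78 of 79 drawn (1 line of the map per gene, ordered by complex), in the 12 libraries, as log2(RPKM + 0.1) minus the gene's mean over all libraries. Colours saturate at 0.6 above or below the mean. Replicates 1 and 2 of TM4 shNC are lower over many genes than replicate 3 of that group and the TM4 shM5 libraries.

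The first comparison asked how the subunits differed between the cell lines, separately in shNC and in shM5 cells. In shNC cells, 5 of 79 members were called higher in TM4 and 27 lower (limma, Benjamini-Hochberg adjusted p under 0.05 over 11810 genes). Over all genes tested, 20.5% were called higher and 34.7% lower, so the members were not called more often than other genes in either direction. The median log2 difference, TM4 minus C18-4, was -0.15 over the members and -0.15 over all genes. In shM5 cells 27 of 78 members were called higher in TM4 and 25 lower, against 29% and 42.5% of all 11737 genes, with medians of 0.03 and -0.12. These are bulk samples, in which fewer cells of a type and less RNA per cell cannot be told apart.

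Complex IV had the highest median difference of the 5 complexes, which were not tested against each other. The median differences of complexes I to V were -0.20, -0.17, -0.20, 0.07 and -0.38 in shNC cells and -0.07, 0.03, -0.08, 0.22 and -0.01 in shM5 cells. In shNC cells the called members, higher and lower in TM4, numbered 1 and 14 of 37 in complex I, 1 and 1 of 4 in complex II, 0 and 3 of 8 in complex III, 2 and 2 of 13 in complex IV and 1 and 7 of 17 in complex V. In shM5 cells they were 11 and 13 in complex I, 1 and 0 in complex II, 2 and 4 in complex III, 8 and 2 of 12 in complex IV and 5 and 6 in complex V. In the absence of TM4 shNC replicate 3 the shNC counts were 2 and 20, 1 and 1, 1 and 4, 4 and 4, and 1 and 9 for complexes I to V (27% and 42% of all genes). Scaling each library by median-of-ratios moved the median of all genes from -0.15 to -0.02 in shNC cells. It left 11 members higher and 12 lower in TM4 (26% and 29.2% of all genes). In shM5 cells it gave 34 higher and 15 lower (34.7% and 36.8% of all genes). With this scaling the medians of complexes I to V became -0.07, -0.04, -0.06, 0.20 and -0.24 in shNC cells and 0.03, 0.13, 0.02, 0.32 and 0.09 in shM5 cells, so the sign for complexes I, III and V in shM5 cells depended on the scaling, while complex IV was positive in these 4 cases. Its median in shNC cells was -0.06 without TM4 shNC replicate 3, still the highest of the 5.

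The calls of the shNC comparison moved with single libraries. Without TM4 shNC replicate 1, TM4 shNC replicate 2, C18-4 shNC replicate 1 or C18-4 shNC replicate 2, the members called were 18, 18, 19 and 18 in place of 32, and the shares of all genes called were 43.1%, 43.7%, 43.6% and 42.7%. Without TM4 shNC replicate 3, 9 were called higher and 38 lower, against 27% and 42% of all genes. Without both TM4 shNC replicates 1 and 2, an alternative chosen after seeing the data, 16 were called (39.2% of all genes).

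The shNC and shM5 libraries of each line are separate samples, so the line difference was measured with each set on its own. In both sets 25 members were called in the same direction, 5 higher and 20 lower in TM4, and 0 in opposite directions. Of all 11651 genes tested in both, 18.2% were called higher and 31.3% lower in both sets, so the members' shares of 6.41% and 25.6% were below those of all genes. Without TM4 shNC replicate 3 the members numbered 7 higher and 22 lower, with Ndufb10 and Ndufb5 in opposite directions, against 18.6% and 32.5% of all genes, and each of the 25 was still called in the same direction. These 25 were 78.1% of the members called in shNC cells and 48.1% of those called in shM5 cells. Over the 78 members tested in both, 59 had the same sign, and 55 without that library. As a description across genes, which share libraries and are not independent, the differences had a Pearson correlation of 0.937 and a Spearman correlation of 0.874, and the Pearson value was 0.882 without Cox7a1. After scaling, 14 of the 25 were still called in the same direction in both sets, namely Cox7b, Cox6c, Sdhb, Atp5f1 and Ndufa13, which were higher in TM4, and Ndufv1, Ndufv2, Ndufs3, Ndufs7, Ndufa9, Atp5h, Atp5s, Cox7a1 and Cox7a2l, which were lower.

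**Figure D3:**
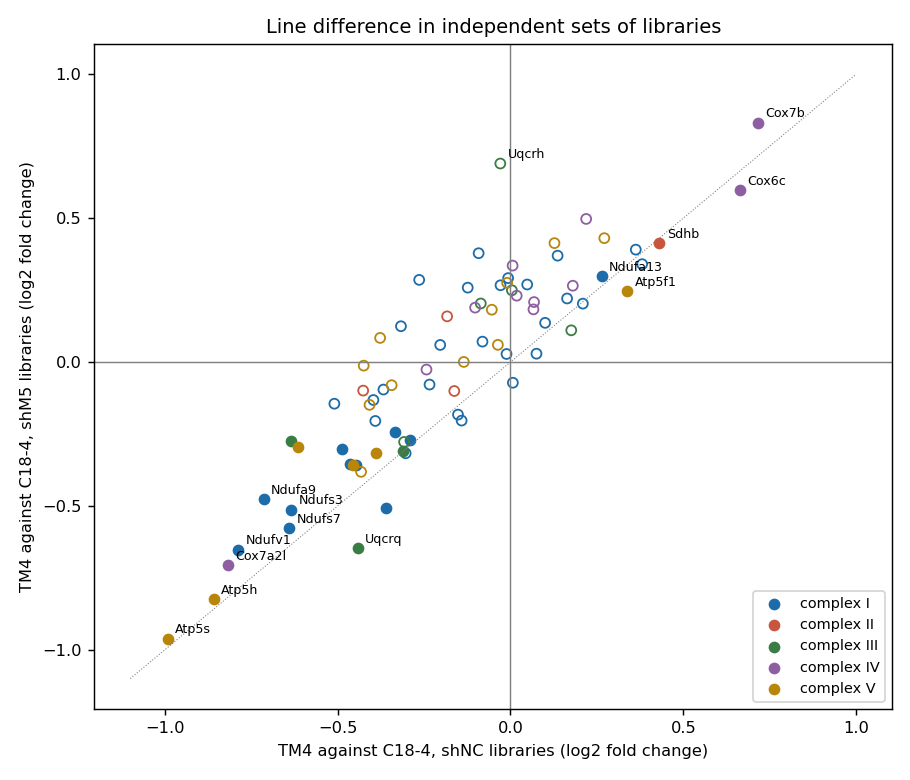
Log2 difference between TM4 and C18-4 of each member tested in both sets, in shNC cells (x axis) and in shM5 cells (y axis), coloured by complex, with filled points for the 25 members called in the same direction in both sets. Cox7a1 lies outside the axes at -3.05 and -4.09. The filled points lie near the diagonal, many open points lie above it, and Cox7b and Cox6c are the highest of the filled points.

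Most core subunits of complex I were called lower in TM4. The 7 nuclear-encoded core subunits, which hold the flavin, the iron-sulfur clusters and the ubiquinone site, summed to 596 to 642 RPKM in C18-4 shNC and 571 to 622 RPKM in C18-4 shM5, and to 447 to 453 and 446 to 455 RPKM in the TM4 groups, with no overlap between the lines. Of the 7, 5 were called lower in TM4 shNC and 6 in TM4 shM5, 4 and 5 with scaling, and 5 in shNC cells without TM4 shNC replicate 3, where 34.7% and 42.5% of all genes were called lower in the 2 sets with all libraries. Ndufs1, the largest subunit, was called in neither set and was at 42.2, 40.5 and 38.1 RPKM in C18-4 shNC, 40.5, 41.1 and 40.1 RPKM in C18-4 shM5, 42.5, 44.2 and 40.5 RPKM in TM4 shNC and 40.9, 40.3 and 43.1 RPKM in TM4 shM5, with differences of 0.08 ± 0.09 and 0.03 ± 0.05 (log2, limma adjusted p = 0.521 and 0.630). Ndufv1, which binds NADH and the flavin, was at 92.9, 93.4 and 99.8 RPKM in C18-4 shNC, 87.7, 86.4 and 92.9 RPKM in C18-4 shM5, 55.02, 53.9 and 56.6 RPKM in TM4 shNC and 56.3, 56.3 and 57.2 RPKM in TM4 shM5. All TM4 libraries were lower than all C18-4 libraries, with log2 differences of -0.79 ± 0.08 (SE, adjusted p = 0.000254) in shNC cells and -0.65 ± 0.05 (adjusted p = 1.06e-05) in shM5 cells (limma). Ndufs7, which carries the iron-sulfur cluster next to ubiquinone, was at 72.1, 70.8 and 71.9 RPKM in C18-4 shNC, 67.3, 66.1 and 70.9 RPKM in C18-4 shM5, 47.02, 42.6 and 48.3 RPKM in TM4 shNC and 45.4, 47.98 and 43.4 RPKM in TM4 shM5. It was lower in every TM4 library too, with differences of -0.64 ± 0.09 and -0.58 ± 0.06 (log2, limma adjusted p = 0.0011 and 5.56e-05). The shNC differences without TM4 shNC replicate 3 were 0.11 for Ndufs1, -0.81 for Ndufv1 and -0.68 for Ndufs7, with the same calls. Of the 5 genes listed for the ubiquinone-reducing Q module, some of which are also core subunits, 3 and 4 were called lower in the shNC and shM5 sets and 0 higher. Of the 10 listed for the NADH-oxidizing N module, 5 and 5 were called lower and 0 and 2 higher. Over all genes, 20.5% and 29% were called higher in the shNC and shM5 sets. In shNC cells without TM4 shNC replicate 3, 4 Q module and 6 N module genes were called lower and 0 higher (42% and 27% of all genes).

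Among accessory subunits of complex I the lines differed in both directions. Ndufa9, a Q module subunit that holds a nucleotide, was at 106, 95.03 and 78.8 RPKM in C18-4 shNC, 97.8, 98.7 and 89.6 RPKM in C18-4 shM5, 52.2, 49.97 and 68.9 RPKM in TM4 shNC and 69.5, 67.6 and 68.3 RPKM in TM4 shM5. The groups of the lines did not overlap, and the log2 differences were -0.71 ± 0.17 (limma adjusted p = 0.0095) in shNC and -0.48 ± 0.05 (adjusted p = 0.000112) in shM5 cells. Ndufa13, also known as the interferon-induced cell death protein GRIM-19, was at 96.6, 99.9 and 99.5 RPKM in C18-4 shNC, 99.7, 102 and 90.3 RPKM in C18-4 shM5, 125, 113 and 117 RPKM in TM4 shNC and 112, 127 and 119 RPKM in TM4 shM5. It was higher in TM4 by 0.26 ± 0.09 and 0.30 ± 0.07 (log2, limma adjusted p = 0.0345 and 0.0052). With TM4 shNC replicate 3 left out the shNC differences were -0.86 for Ndufa9 and 0.27 for Ndufa13, and both were called.

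In complex II only the iron-sulfur subunit Sdhb was called higher in TM4 in both sets. Sdhb was at 80.6, 71.1 and 76.96 RPKM in C18-4 shNC, 74.98, 71.99 and 74.3 RPKM in C18-4 shM5, 102, 107 and 99.1 RPKM in TM4 shNC and 96.7, 100.02 and 97.9 RPKM in TM4 shM5, which did not overlap between the lines, and its log2 differences were 0.43 ± 0.09 and 0.41 ± 0.04 (limma adjusted p = 0.0064 and 8.97e-05). Sdhc was called lower in TM4 in shNC cells, -0.43 ± 0.08 (adjusted p = 0.0042, limma), and was at -0.10 ± 0.06 (adjusted p = 0.179) in shM5 cells. The log2 differences of Sdha were -0.16 ± 0.09 and -0.10 ± 0.05, and those of Sdhd -0.18 ± 0.14 and 0.16 ± 0.10, and none of these 4 passed the limma test. Leaving out TM4 shNC replicate 3 gave shNC differences of 0.46 for Sdhb, -0.45 for Sdhc, -0.18 for Sdha and -0.29 for Sdhd, with the same calls.

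In complex III, 3 of 8 members were called lower in TM4 in both sets and 0 higher (31.3% and 18.2% of all genes). They were Uqcrfs1, the Rieske protein, with differences of -0.64 ± 0.14 and -0.28 ± 0.07 (log2), Uqcr10 with -0.31 ± 0.08 and -0.31 ± 0.05, and Uqcrq with -0.44 ± 0.13 and -0.65 ± 0.06 (limma adjusted p = 0.0235 and 4.92e-05). None of these 3 passed in both sets with median-of-ratios scaling. Uqcrh was called higher in TM4 in the shM5 set, 0.69 ± 0.15 (adjusted p = 0.0040), and differed by -0.03 ± 0.23 (adjusted p = 0.921) in the shNC set. The shNC differences became -0.73 for Uqcrfs1, -0.28 for Uqcr10, -0.32 for Uqcrq and -0.30 for Uqcrh when TM4 shNC replicate 3 was left out, with the same calls.

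Complex IV held members with large differences in both directions. Cox7b was at 96.8, 85.6 and 71.5 RPKM in C18-4 shNC, 94.4, 93.1 and 78.8 RPKM in C18-4 shM5, 125, 126 and 166 RPKM in TM4 shNC and 163, 158 and 152 RPKM in TM4 shM5. Every TM4 library was above every C18-4 library, with differences of 0.72 ± 0.16 and 0.83 ± 0.08 (log2, limma adjusted p = 0.0082 and 3.52e-05). Cox6c was at 284, 267 and 279 RPKM in C18-4 shNC, 304, 298 and 237 RPKM in C18-4 shM5, 432, 414 and 472 RPKM in TM4 shNC and 412, 435 and 416 RPKM in TM4 shM5, also without overlap, with differences of 0.67 ± 0.09 and 0.60 ± 0.10 (adjusted p = 0.000767 and 0.000794). Both encode small accessory subunits of cytochrome c oxidase. Cox7a2l, which helps to join complexes III and IV into supercomplexes, was at 166, 156 and 222 RPKM in C18-4 shNC, 157, 146 and 181 RPKM in C18-4 shM5, 109, 109 and 88.1 RPKM in TM4 shNC and 104, 100.02 and 92.7 RPKM in TM4 shM5. It was lower in TM4 without overlap, with differences of -0.82 ± 0.16 and -0.71 ± 0.09 (log2, limma adjusted p = 0.0048 and 0.000168). Cox7a1 was at 4.83 to 12.04 RPKM in C18-4 and 0 to 0.78 RPKM in TM4, so its log2 differences of -3.05 ± 0.33 and -4.09 ± 0.74 depend on the added 0.1 RPKM. Cox5a, a nuclear subunit on the matrix side, was at 206, 188 and 143 RPKM in C18-4 shNC, 189.9, 181 and 161 RPKM in C18-4 shM5, 196, 185 and 241 RPKM in TM4 shNC and 256, 248 and 246 RPKM in TM4 shM5, and was called higher in TM4 in the shM5 set, 0.50 ± 0.07 (adjusted p = 0.000303). In the shNC set, where the lines overlapped, the difference was 0.22 ± 0.17 (limma adjusted p = 0.299). Omitting TM4 shNC replicate 3 gave shNC differences of 0.58 for Cox7b, 0.61 for Cox6c, -0.72 for Cox7a2l, -3.04 for Cox7a1 and 0.11 for Cox5a, and the calls were the same.

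In complex V, genes of the peripheral stalk differed between the lines in opposite directions. Atp5h, subunit d of the stalk, was at 670.3, 629 and 624 RPKM in C18-4 shNC, 734, 667 and 637 RPKM in C18-4 shM5, 352, 342 and 368 RPKM in TM4 shNC and 394, 389.8 and 365 RPKM in TM4 shM5. It was lower in every TM4 library, with differences of -0.86 ± 0.08 and -0.82 ± 0.07 (log2, limma adjusted p = 0.000150 and 1.55e-05). Atp5f1, subunit b of the same stalk, was at 159.5, 145 and 148 RPKM in C18-4 shNC, 156, 154 and 154 RPKM in C18-4 shM5, 195, 195 and 182 RPKM in TM4 shNC and 187, 180.3 and 183 RPKM in TM4 shM5. It was higher in every TM4 library, with differences of 0.34 ± 0.09 and 0.25 ± 0.04 (adjusted p = 0.0142 and 0.0011). Atp5l, subunit g of the membrane part, was at 341, 291 and 276 RPKM in C18-4 shNC, 324, 318 and 302 RPKM in C18-4 shM5, 355, 343 and 396 RPKM in TM4 shNC and 439, 417 and 416 RPKM in TM4 shM5. It passed the limma test in shM5 cells, 0.43 ± 0.05 (adjusted p = 0.000133), and not in shNC cells, 0.27 ± 0.11 (adjusted p = 0.0800). Of the 5 genes of the catalytic F1 head, 0 were called higher and 2 lower in shNC cells and 2 and 2 in shM5 cells, and of the 3 c ring genes 0 and 1 in each set. Over all genes, 20.5% were called higher and 34.7% lower in shNC cells, and 29% and 42.5% in shM5 cells. In shNC cells without TM4 shNC replicate 3 the differences were -0.89 for Atp5h, 0.37 for Atp5f1 and 0.21 for Atp5l, with the same calls. In that setting 0 and 2 F1 genes and 0 and 2 c ring genes were called, against 27% and 42% of all genes.

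The second comparison asked what shM5 did to the subunits in C18-4 cells. No member passed the limma test, while 68 of 11611 genes did, 0.586% of all. At an unadjusted p under 0.05 there were 2 members, and the smallest adjusted p of a member was 0.284. The log2 difference, shM5 minus shNC, was positive for 29 members and negative for 50, with a median of -0.03 (all genes 0.00). The medians of complexes I to V were -0.03, -0.02, -0.05, 0.00 and -0.06. The values of shM5 and shNC did not overlap for 1 member that was higher and 8 that were lower in shM5, against 9.3% and 9.55% of all genes.

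Libraries with the same replicate number deviated together in C18-4, where replicates 1 and 2 also did so across numbers. With the replicate number as a block 3 members of complex I were called. Ndufb6, an accessory subunit of the membrane arm, was at 64.6, 58.02 and 54.8 RPKM in the C18-4 shNC libraries and 53.3, 45.5 and 47.5 RPKM in the C18-4 shM5 libraries. The shM5 libraries were all below the shNC libraries, with a difference of -0.28 ± 0.05 (log2, limma adjusted p = 0.0146 with the block and 0.284 without). Ndufb10, of the same arm, was at 120.3, 111 and 101 RPKM in the C18-4 shNC libraries and 103, 90.7 and 90.2 RPKM in the C18-4 shM5 libraries and was lower at every number, with a difference of -0.23 ± 0.05 (adjusted p = 0.0213 with the block and 0.382 without). Ndufa3 was at 181, 167 and 155 RPKM in the C18-4 shNC libraries and 216, 198 and 163 RPKM in the C18-4 shM5 libraries and was higher at every number, by 0.20 ± 0.05 (adjusted p = 0.0433 with the block and 0.580 without). The block called 5.21% of all genes higher and 6.73% lower, so 1 and 2 of 79 members are no larger share.

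Besides Ndufb6, 8 members had groups that did not overlap in C18-4, 7 of them at 5 RPKM or more. Ndufs4, an accessory subunit of the N module, was at 37.4, 34.8 and 35 RPKM in the C18-4 shNC libraries and 40.0, 37.98 and 38.4 RPKM in the C18-4 shM5 libraries, higher in shM5 by 0.12 ± 0.07 (log2). Sdhc was at 109, 105 and 106 RPKM in the C18-4 shNC libraries and 103, 96.8 and 90.7 RPKM in the C18-4 shM5 libraries, with a difference of -0.14 ± 0.07. Atp5c1, the rotating gamma shaft of the ATP synthase, was at 267, 252 and 254 RPKM in the C18-4 shNC libraries and 238, 234 and 229.8 RPKM in the C18-4 shM5 libraries, with a difference of -0.14 ± 0.06. Ndufb11, the core protein gene Uqcrc2, Uqcr10 and Atp5d differed by -0.11 ± 0.06, -0.09 ± 0.06, -0.06 ± 0.06 and -0.06 ± 0.06. The limma adjusted p of these 7 genes lay between 0.412 and 0.786. The eighth was Cox6a2, at 0.8, 0.81 and 1.3 RPKM in the C18-4 shNC libraries and 0.46, 0.59 and 0.71 RPKM in the C18-4 shM5 libraries, with a difference of -0.62 ± 0.27 (limma adjusted p = 0.414).

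In TM4 cells no member passed the limma test between shM5 and shNC with all 6 libraries, nor did any other of the 11016 genes tested (0%). At an unadjusted p under 0.05 there were 2866 genes, 15 of them members, and the smallest adjusted p of a member was 0.192. The log2 difference was positive for 60 of 79 members, with a median of 0.13 (all genes 0.04). With median-of-ratios scaling it was positive for 53, with a median of 0.09 (all genes 0.00). The medians of complexes I to V were 0.07, 0.15, 0.10, 0.15 and 0.15. The values of shM5 and shNC did not overlap for 18 members that were higher in shM5 and 1 that was lower, against 15.7% and 11.1% of all genes.

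These values rest on the control library that stood apart. Without TM4 shNC replicate 3, 42 members were called higher and 4 lower in shM5, where 36.5% and 30.9% of all 11026 genes were called. The members' share was thus above that of all genes for higher calls and below it for lower calls, and this was not tested. The groups did not overlap for 47 members that were higher and 10 that were lower, against 42.4% and 36.6% of all genes. The median log2 difference was then 0.17 over the members and 0.04 over all genes, and 0.11, 0.17, 0.16, 0.27 and 0.21 for complexes I to V. By complex, 15 of 37 were called higher in complex I, 3 of 4 in complex II, 4 of 8 in complex III, 8 of 13 in complex IV and 12 of 17 in complex V, and the 4 called lower were Uqcrq and Uqcrc2 of complex III and Cox6a2 and Cox7a2l of complex IV. None of the 7 core subunits of complex I was among them, and the 15 counted in complex I include Ndufa4, the complex IV subunit. The comparison then holds 2 shNC libraries and 3 shM5 libraries, and which of the shNC libraries represents the group is not given by the labels. Leaving out the shNC library nearest to shM5 was an alternative chosen after seeing the data.

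**Figure D4:**
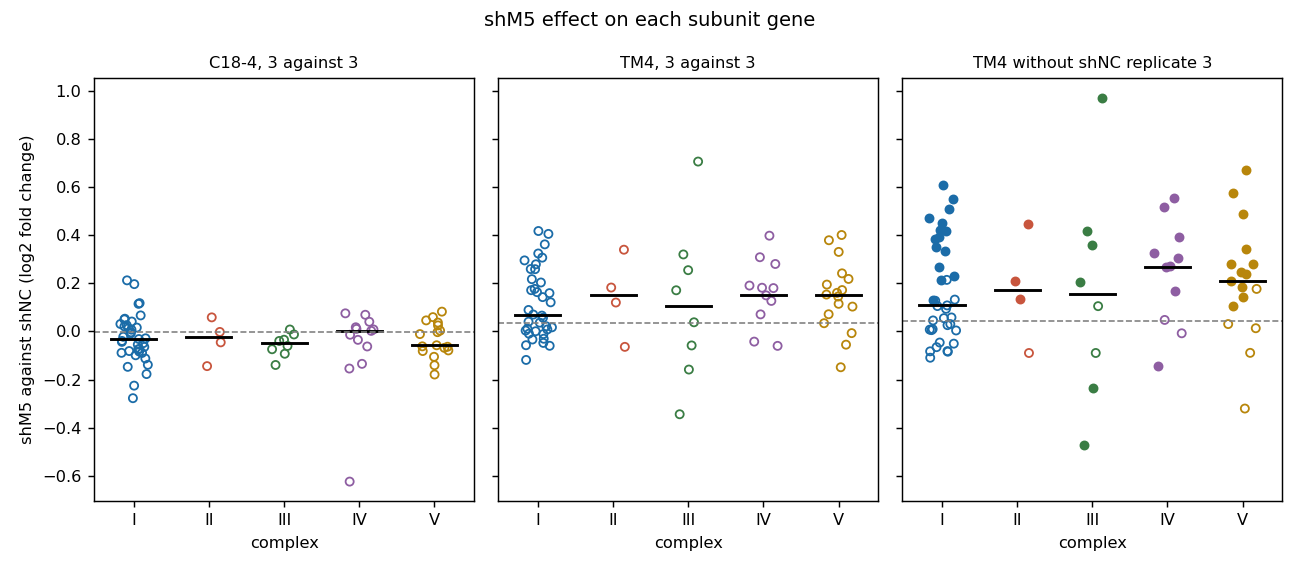
Log2 difference, shM5 minus shNC, of each tested member by complex, in C18-4, in TM4 and in TM4 without shNC replicate 3, with a bar at the median of each complex and a dashed line at the median of all genes tested. Filled points passed the limma test. Cox6a2 in TM4, at -2.98 and -4.39, lies below the axis and is not drawn. Filled points appear in the last panel alone, and the 5 medians are above 0 in both TM4 panels.

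Uqcrh had the largest difference of the members at 5 RPKM or more whose TM4 groups did not overlap. Uqcrh, the acidic hinge protein that helps cytochrome c to dock on complex III, was at 96.3, 92.9 and 164 RPKM in the TM4 shNC libraries and 195, 188 and 175 RPKM in the TM4 shM5 libraries. Replicates 1 and 2 of shNC lay well below the other four libraries. The log2 difference was 0.71 ± 0.22 (limma adjusted p = 0.192), and 0.97 ± 0.05 (adjusted p = 4.67e-06) without shNC replicate 3. The second value leaves out the control nearest to shM5 and is not an independent test. In C18-4 it was at 127, 123 and 100.1 RPKM in the C18-4 shNC libraries and 139, 123 and 89.2 RPKM in the C18-4 shM5 libraries, where replicate 3 was the lowest of both groups.

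Ndufa8, Cox6b1, Sdhd and Atp5k had the same form. Ndufa8, a subunit on the intermembrane side of complex I, was at 56.05, 53.4 and 74 RPKM in the TM4 shNC libraries and 78.2, 80.9 and 81.5 RPKM in the TM4 shM5 libraries. Cox6b1, which lies between the monomers of complex IV, was at 256, 251 and 351 RPKM in the TM4 shNC libraries and 372, 386 and 359.8 RPKM in the TM4 shM5 libraries. Sdhd, a membrane anchor of complex II, was at 60.9, 60.5 and 76.1 RPKM in the TM4 shNC libraries and 84.8, 84.2 and 79.8 RPKM in the TM4 shM5 libraries. In each of these, shNC replicate 3 was far above shNC replicates 1 and 2 and close below the shM5 libraries. Atp5k, subunit e, which helps ATP synthase dimers to form, was at 164, 143 and 213 RPKM in the TM4 shNC libraries and 214, 219 and 213 RPKM in the TM4 shM5 libraries. In Atp5k, replicate 3 of shNC and replicate 3 of shM5 were nearly equal. The log2 differences of these 4 genes were 0.41 ± 0.13, 0.40 ± 0.14, 0.34 ± 0.11 and 0.33 ± 0.14, each with a limma adjusted p of 0.192. Without shNC replicate 3 they were 0.55 ± 0.04, 0.56 ± 0.04, 0.45 ± 0.04 and 0.49 ± 0.06, with adjusted p of 2.30e-05, 1.99e-05, 6.58e-05 and 0.000214.

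Uqcrq went the other way. Uqcrq, a small subunit of complex III, was at 59.8, 60.2 and 46.1 RPKM in the TM4 shNC libraries and 42.7, 41.3 and 45.98 RPKM in the TM4 shM5 libraries. The shM5 libraries were lower than each shNC library, with shNC replicate 3 close above them, and the log2 difference was -0.34 ± 0.12 (limma adjusted p = 0.192), or -0.47 ± 0.05 (adjusted p = 0.000158) without that library. Cox6a2, the muscle isoform of its subunit, was at 5.45, 6.42 and 0.22 RPKM in the TM4 shNC libraries and 0, 0.45 and 0.33 RPKM in the TM4 shM5 libraries. Of these, shNC replicates 1 and 2 alone were above 1 RPKM, and the groups overlapped.

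Other genes moved with the same libraries. The summed RPKM of 16 genes of the ATF4 stress response, which amino acid shortage and mitochondrial faults are known to induce, was 3039.9, 3034 and 1335 in the TM4 shNC libraries and 1261 to 1284 in TM4 shM5. In C18-4 it was 1308, 1308 and 2079.6 in shNC and 1243, 1247 and 1934 in shM5, so replicate 3 was the highest in both groups. In TM4, 0 of the 16 were called with all libraries and 16 were called lower in shM5 without shNC replicate 3 (30.9% of all genes). In either line the libraries with more ATF4 response RNA were those with less Uqcrh, Ndufa8, Cox6b1 and Sdhd RNA, and the part of this response in the result was not tested.

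The summed RPKM of 9 fibroblast and myoid markers was 1221, 1185 and 2065 in TM4 shNC, 2112 to 2187 in TM4 shM5 and 1017 to 1249 in C18-4. Of the 8 tested in TM4, 0 were called with all libraries and 7 were called higher in shM5 without shNC replicate 3 (36.5% of all genes). Of 15 listed Sertoli markers 8 were tested, with 0 called and then 0 higher and 4 lower (36.5% and 30.9% of all genes). Of 14 listed germ cell markers 1 was tested, with 0 and then 1 called higher. Of the 6 Leydig markers 1 was tested and 0 were called in either case, with a summed level of at most 1.6 RPKM in any library. The part of these cell types in the result was not tested.

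The members have short transcripts, with a median length of 755 nucleotides (81 of 84 with an annotated length) against 2919 for the other expressed genes (11449 of 11694). With all TM4 libraries, the median log2 difference was 0.16 for the 33 members of up to 700 nucleotides and 0.09 for other genes of that length. It was 0.15 and 0.06 from 700 to 1500 nucleotides (31 members), and -0.03 and 0.04 from 1500 to 3000 nucleotides (13 members, too few for a trend). Without shNC replicate 3 these medians were 0.27 and 0.13, 0.21 and 0.08, and -0.07 and 0.04. In both cases, in the 2 shorter classes the median of the members lay above that of other genes of their length, and in the longest of these classes below it. The part of length in the result was not tested.

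Members with and without a promoter motif were set side by side in TM4. The 37 tested members with at least 1 of the NRF1, ETS and YY1 letters had a median log2 difference of 0.16, with 31 positive, and the 28 without had 0.10, with 21 positive. Without shNC replicate 3, 25 of the 37 and 13 of the 28 were called higher, against 36.5% of all genes, with medians of 0.21 and 0.16, and the difference between the sets was not tested. Uqcrh, Ndufa8 and Sdhd, whose promoters are printed above, are among the 37.

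**Figure D5:**
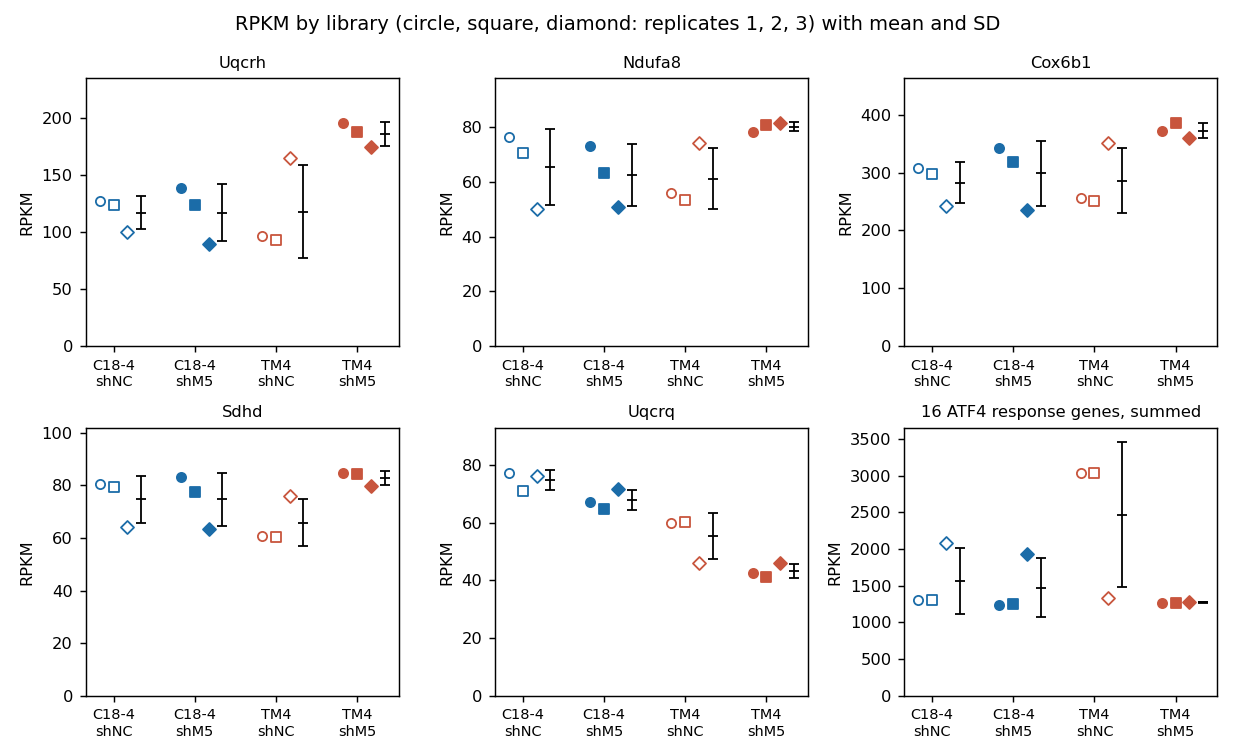
RPKM in each of the 12 libraries of Uqcrh, Ndufa8, Cox6b1, Sdhd and Uqcrq, and the summed RPKM of the 16 ATF4 response genes, with open symbols for shNC and filled symbols for shM5. Circles, squares and diamonds are replicates 1, 2 and 3, and the bar beside each group is its mean with the SD (n = 3). In TM4 shNC the diamond lies with the shM5 libraries in every panel.

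The third comparison asked whether shM5 changed the subunits differently in the lines. The difference of the log2 differences, TM4 minus C18-4, was positive for 64 of 79 members with a median of 0.14 (all genes 0.04). No member passed the limma test of this interaction, and 12 did at an unadjusted p under 0.05, while 12 of 11773 genes (0.102%) passed after adjustment. Without TM4 shNC replicate 3, 22 members were called with a positive and 2 with a negative difference, against 21.5% and 16.4% of all genes, and the difference was positive for 61 of 79 with a median of 0.17 (all genes 0.05). With all libraries, no member's shM5 effect was shown to differ between the lines.

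The genes around the complexes were counted from lists of symbols. None of the assembly factors, regulators, TCA cycle genes or carriers was called between shM5 and shNC in either line with all libraries. Over all genes 0.586% were called in C18-4 and 0% in TM4, so this does not set the lists apart. Of 44 assembly factors, 8 were called higher and 14 lower in TM4 than in C18-4 in shNC cells, and 6 and 20 in shM5 cells, with median differences of -0.11 and -0.14. These are 18.2% and 31.8% in shNC cells, against 20.5% and 34.7% of all genes, and 13.6% and 45.5% in shM5 cells, against 29% and 42.5%. In shNC cells without TM4 shNC replicate 3 the counts were 11 and 17, with a median of -0.07 (27% and 42% of all genes called). Lyrm7, a chaperone of the Rieske protein, was at 3.15, 1.66 and 2.2 RPKM in C18-4 shNC and 8.27, 8.46 and 6.65 RPKM in TM4 shNC. Its log2 differences between the lines were 1.73 ± 0.24 in shNC and 2.22 ± 0.10 in shM5 cells (limma adjusted p = 0.000994 and 5.69e-07). Ndufaf1, needed to assemble the membrane arm of complex I, was at 22.8, 22.6 and 20.1 RPKM in C18-4 shNC and 7.18, 6.29 and 8.13 RPKM in TM4 shNC, with differences of -1.59 ± 0.14 and -1.41 ± 0.09 (adjusted p = 7.73e-05 and 3.15e-06). Without that library the shNC differences were 1.84 for Lyrm7 and -1.68 for Ndufaf1. When TM4 shNC replicate 3 was left out, 10 assembly factors (22.7%) were called higher and 15 (34.1%) lower in TM4 shM5, against 36.5% and 30.9% of all genes, with a median of -0.08. Tmem70, which helps to build the ATP synthase, was at 47.6, 46.04 and 24.9 RPKM in the TM4 shNC libraries and 24.4, 22.9 and 23.7 RPKM in the TM4 shM5 libraries, and its log2 difference without that library was -0.98 ± 0.05 (limma adjusted p = 2.97e-06).

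Of 13 regulators of mitochondrial biogenesis, 3 were called higher and 2 lower in TM4 in shNC cells (20.5% and 34.7% of all genes). In shM5 cells 5 and 4 were called (29% and 42.5% of all genes), and the medians were 0.18 in shNC and 0.13 in shM5 cells. In shNC cells without TM4 shNC replicate 3 the counts were 7 and 2, with a median of 0.26 (27% and 42% of all genes called). Ppargc1a, the coactivator that drives mitochondrial biogenesis, was listed at 0 in all 6 C18-4 libraries and was at 2.52, 2.5 and 1.57 RPKM in the TM4 shNC libraries and 1.56, 1.89 and 1.64 RPKM in the TM4 shM5 libraries. Tfb1m, which modifies mitochondrial ribosomal RNA, was called lower in TM4 in both sets, and in shM5 cells its log2 difference was -1.03 ± 0.14 (limma adjusted p = 0.000326). Its shNC difference without that library was -0.93. With TM4 shNC replicate 3 left out, 0 of the 13 were called higher and 8 lower in TM4 shM5 with a median of -0.27, among them Gabpb2, a subunit of GABP, at -0.71 ± 0.05, and Tfam, which packs mitochondrial DNA, at -0.48 ± 0.06 (adjusted p = 1.69e-05 and 0.000179). The other 5 were not called, and 36.5% and 30.9% of all genes were called higher and lower in that setting.

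Of 13 TCA cycle genes, 1 was called higher and 3 lower in TM4 in shNC cells, and 7 and 6 in shM5 cells, with medians of 0.11 and 0.15, and 4 and 4 in shNC cells without TM4 shNC replicate 3. Over all genes, 20.5% and 34.7% were called in shNC cells, 29% and 42.5% in shM5 cells, and 27% and 42% without TM4 shNC replicate 3. The same shares apply to the carriers and to the genes outside the rule below. Ogdh, a subunit of the oxoglutarate dehydrogenase complex, was lower in TM4, with differences of -0.71 ± 0.12 and -0.51 ± 0.05 (log2, limma adjusted p = 0.0020 and 3.38e-05) and a shNC difference of -0.80 without that library. In TM4 shM5 against shNC replicates 1 and 2, 7 were called higher and 3 lower (36.5% and 30.9% of all genes) with a median of 0.12, and Dld, the shared dehydrogenase subunit, was at -0.84 ± 0.04 (adjusted p = 2.38e-06). Of 6 carriers and channels of ATP and phosphate, 0 were called higher and 2 lower in TM4 in shNC cells and 2 and 2 in shM5 cells, with medians of -0.15 and -0.06, and 1 and 3 in shNC cells without TM4 shNC replicate 3. Vdac1, the main channel of the outer membrane, was at 266, 263 and 257 RPKM in C18-4 shNC, 268, 256 and 257 RPKM in C18-4 shM5, 103, 101 and 129 RPKM in TM4 shNC and 123, 122 and 123 RPKM in TM4 shM5. It was lower in every TM4 library, with differences of -1.25 ± 0.11 and -1.08 ± 0.04 (log2, limma adjusted p = 0.000110 and 3.09e-07), and -1.36 in shNC cells without that library. In TM4 without shNC replicate 3, 4 of the 6 were called higher and 2 lower in shM5 with a median of 0.31, led by the ADP/ATP carrier Slc25a5 at 0.65 ± 0.05 (adjusted p = 2.80e-05). Of the 5 genes of the chain whose symbols fall outside the rule, Ndufab1, Ndufa4l2, Usmg5, Cyc1 and Cycs, 4 were tested, and 2 and 3 were called higher in TM4 in the shNC and shM5 sets, with 0 lower. With TM4 shNC replicate 3 left out, 5 were tested in shNC cells, with 2 called higher and 0 lower.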

How the data were processed

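Values of 12 RNA-seq libraries of C18-4 and TM4 cells were used, grouped by the samples' labels, and 0 columns were left unmapped. The authors enriched mRNA with oligo(dT), sequenced it on an Illumina HiSeq, aligned reads to reference genes with SOAPaligner and deposited RPKM per gene. The methods name both RPKM and FPKM, and the genome build is not given in the sources used here. RPKM was deposited without read numbers, so the counting error of a value could not be given.

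Genes whose mean reached 0.5 RPKM were fitted as log2(RPKM + 0.1) with limma (version 3.58.1, R 4.3.3) with a mean-variance trend, over the libraries of each comparison or, for the interaction, over all 12. Adjustment was by Benjamini and Hochberg over all genes tested, and genes with an adjusted p under 0.05 were called. The step was tested on simulated data. A fold change is on the log2(RPKM + 0.1) scale and understates changes of low genes. Alternatives were a replicate block, each library left out, replicate 3 of both groups left out, median-of-ratios and quantile scaling, other pseudocounts and filters, no trend, and the study's stricter threshold. In C18-4, same-numbered libraries shared their deviations from the group means (correlations over genes of 0.439, 0.409 and 0.631), so the numbers were taken to pair them there. Replicates 1 and 2 also correlated across numbers (0.345 and 0.341), and replicate 3 correlated with other numbers at -0.514 to -0.467. The pattern thus mainly set replicate 3 apart from replicates 1 and 2.

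Named genes were untested members, the highest and lowest of each complex, isoforms, the Sdh genes, per comparison up to 5 members a direction with the largest difference among those without overlap and at 5 RPKM or more, and the leading genes of other lists. Members and lists were chosen with earlier results of these data known, and genes named outside this rule were picked with their values in view. For 1 member no separate values are reported here. Transcript lengths came from GENCODE M21 (GRCm38) and promoters from RefSeq (GRCm38.p6), with Python 3.11.15, numpy 2.4.6, pandas 2.3.3, scipy 1.17.1 and matplotlib 3.10.9.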

Additional observations from a re-analysis of the deposited data

Results flagged for a closer look

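For 3 members the shM5 and shNC libraries did not overlap in either line and lay in opposite directions, lower with shM5 in C18-4 and higher with shM5 in TM4. Of all genes, 9.55% were lower without overlap in C18-4 and 15.7% higher without overlap in TM4. The share of all genes with both was not counted, so the 3 members cannot be set against it. The difference of the log2 differences, TM4 minus C18-4, was 0.327 for Sdhc, a membrane anchor of complex II, 0.286 for Atp5c1, the gamma shaft of the ATP synthase, and 0.236 for Atp5d, the delta subunit of the same shaft. In the limma test of the interaction over 11773 genes the adjusted p was 0.168 for Sdhc, 0.174 for Atp5c1 and 0.223 for Atp5d, so none passed the threshold with all libraries. Without TM4 shNC replicate 3 the differences were 0.35, 0.33 and 0.30, and all 3 passed (limma adjusted p = 0.0084, 0.0041 and 0.0093), where 21.5% of all genes were called with a positive difference. The 3 members were picked for opposite directions in these same libraries, so a positive difference was built in. That fit also leaves out the control nearest to shM5, so its p-values are descriptions and not independent tests. Sdhc was at 109, 105 and 106 RPKM in the C18-4 shNC libraries and 103, 96.8 and 90.7 RPKM in the C18-4 shM5 libraries. In TM4 it was at 78.6, 77.3 and 82.3 RPKM in the TM4 shNC libraries and 92.5, 92.1 and 85.9 RPKM in the TM4 shM5 libraries. Atp5c1 was at 267, 252 and 254 RPKM in the C18-4 shNC libraries and 238, 234 and 229.8 RPKM in the C18-4 shM5 libraries. In TM4 it was at 279.7, 268 and 298 RPKM in the TM4 shNC libraries and 315, 307 and 312 RPKM in the TM4 shM5 libraries. Atp5d was at 211, 199 and 198 RPKM in the C18-4 shNC libraries and 193, 191 and 196 RPKM in the C18-4 shM5 libraries. In TM4 it was at 193, 179.7 and 213 RPKM in the TM4 shNC libraries and 215, 218 and 226 RPKM in the TM4 shM5 libraries. In each gene TM4 shNC replicate 3 was the TM4 shNC library nearest to the shM5 libraries.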

How the results depend on the processing

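With the replicate number as a block, 3 members were called in C18-4 in place of 0 and 21 between the lines in shNC cells in place of 32, and the paired fit changed no other count of called members by over 1.5 times. As shares of the members tested, these were 3.8% in place of 0% and 26.6% in place of 40.5%. Over all genes the shares were 11.9% in place of 0.586% and 46.1% in place of 55.2%, so all genes moved in the same directions. Numbers were taken to pair the libraries in C18-4 alone, where replicates 1 and 2 also correlated across numbers (0.345 and 0.341). The correlations of same-numbered deviations were 0.0729, 0.0489 and 0.127 in TM4, -0.225, -0.198 and -0.303 between the lines in shNC cells, and -0.0535, -0.124 and -0.153 in shM5 cells. Leaving out 1 library at a time gave 0 to 46 members called in TM4, with 46 without TM4 shNC replicate 3, 18 to 47 between the lines in shNC cells, 41 to 60 in shM5 cells and 0 to 24 in the interaction, with 24 without the same library. As shares of the members tested these were 0% to 58.2% in TM4, 22.8% to 59.5% and 51.9% to 76.9% between the lines in shNC and shM5 cells, and 0% to 30.4% in the interaction. The same fits called 0% to 67.4%, 42.7% to 69.1%, 64.4% to 76.7% and 0% to 37.96% of all genes. Without replicate 3 of both groups, 10 members were called in C18-4, 50 in TM4, 64 between the lines in shNC cells and 44 in the interaction, with fewer libraries in each. These were 12.7%, 63.3%, 81.01% and 55.7% of the members tested, against 26.2%, 72.7%, 83.02% and 59.9% of all genes. Without TM4 shNC replicates 1 and 2, 16 were called between the lines in shNC cells. The study's stricter threshold was 0.001 for the adjusted p and 1 for the absolute log2 difference. Under it, 1 member was called between the lines in shNC cells and 0 in shM5 cells. This was 1.27% and 0% of the members tested, against 19.2% and 25.2% of all genes. Median-of-ratios scaling gave 11 higher and 12 lower in TM4 in place of 5 and 27 in shNC cells, and 34 and 15 in place of 27 and 25 in shM5 cells. Summed over both directions, the counts of called members stayed within 1.5 times under the pseudocounts, filters, scalings and trend settings tried. For the genes named for the largest differences without overlap, 480 values under an alternative kept their direction and side of the threshold. Another 17 came to pass it, 25 ceased to pass it and 0 reversed. Genes picked in this way were unlikely to reverse from the start. Sdha and Sdhc were not among them between the lines in shM5 cells. With median-of-ratios scaling their differences there went from -0.101 to 0.0034 and from -0.0994 to 0.0049. The cause of these shifts was not tested. With 3 libraries a group and no read numbers, small changes of low genes such as Cox6a2 could not be resolved.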
